A study of Mus musculus with 10 samples.

Results

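The genes described here are 43 genes of glycolysis, the citric acid cycle and their immediate links, followed in the cochlea of euthyroid and hypothyroid mice. They were matched by gene symbol to a list of names, and that list was drawn up with earlier results of these data known. The list holds 2 glucose carriers, 9 genes of upper glycolysis, 6 of lower glycolysis, 4 of lactate handling, 3 of the pyruvate dehydrogenase complex, 4 kinases of that complex, 13 of the citric acid cycle and 2 of the pentose phosphate pathway. All 43 were among the 18725 genes of the deposited table, and all 43 passed the filter on low counts, which kept 14862 genes.

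RNA was measured in 10 libraries from the outer sulcus, the strip of epithelium at the lateral edge of the cochlear duct, and the spiral ligament below it. All mice were C57BL/6J at postnatal day 10. The 5 euthyroid libraries came from offspring of dams given vehicle, and the 5 hypothyroid libraries from offspring of dams whose drinking water held methimazole at 0.05% and, with sucrose at 5.0%, sodium perchlorate monohydrate at 1.0%. Both treatments began at embryonic day 17 and ran through lactation to postnatal day 10. Methimazole blocks thyroid hormone synthesis and perchlorate blocks iodide uptake, so the model acts through the dam and lowers hormone in the whole animal, not in the cochlea alone. The labels give both drugs and the sucrose for the hypothyroid group only. Their own effects cannot be told apart from those of low hormone. The labels do not say how libraries map to animals or litters, so every p-value measures only the spread between these libraries.

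Glycolysis splits glucose into pyruvate in the cytosol and yields a little ATP and NADH. Pyruvate is then either reduced to lactate or carried into the mitochondrion, where the pyruvate dehydrogenase complex turns it into acetyl-CoA for the citric acid cycle, which supplies the respiratory chain. The lateral wall of the cochlea spends much ATP on sodium pumps that keep potassium moving toward the endolymph, and thyroid hormone is a classical regulator of oxidative metabolism and of cochlear maturation.

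To show what lies at the starts of these genes, 4 promoter windows are printed. They are those of Pfkm, which fell most, Ldha, whose window held the most matches to the motif ACGTG, and Sucla2 and Idh2. Sucla2 fell most within the citric acid cycle, and Idh2 rose most. The 4 were chosen with these values known. Each window runs from 250 bases before to 50 after a start in the RefSeq promoter table on GRCm38.p6. That start is the most upstream of those the table lists for the gene. Sequences read 5′ to 3′ on the gene's strand. Capitals mark matches, on either strand, to ACGTG (a form of the hypoxia response element core) or AGGTCA (the nuclear receptor half-site). The other form of that core, GCGTG, was not searched, so it is neither marked nor counted. Where CACGTG appears, ACGTG matches on both strands and counts as 2 overlapping matches.
Pfkm, chr15:98092339-98092638, plus strand: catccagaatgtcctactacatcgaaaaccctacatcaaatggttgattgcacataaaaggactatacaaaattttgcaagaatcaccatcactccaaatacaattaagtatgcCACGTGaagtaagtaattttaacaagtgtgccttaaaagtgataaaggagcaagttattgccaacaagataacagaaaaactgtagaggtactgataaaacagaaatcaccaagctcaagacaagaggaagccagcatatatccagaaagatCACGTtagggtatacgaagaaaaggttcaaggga
Ldha, chr7:46845554-46845853, plus strand: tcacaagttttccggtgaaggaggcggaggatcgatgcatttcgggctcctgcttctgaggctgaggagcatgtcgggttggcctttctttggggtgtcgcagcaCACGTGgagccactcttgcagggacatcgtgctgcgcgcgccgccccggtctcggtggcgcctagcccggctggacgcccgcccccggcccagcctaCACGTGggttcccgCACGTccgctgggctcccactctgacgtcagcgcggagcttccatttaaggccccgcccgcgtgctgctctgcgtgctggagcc
Sucla2, chr14:73552536-73552835, plus strand: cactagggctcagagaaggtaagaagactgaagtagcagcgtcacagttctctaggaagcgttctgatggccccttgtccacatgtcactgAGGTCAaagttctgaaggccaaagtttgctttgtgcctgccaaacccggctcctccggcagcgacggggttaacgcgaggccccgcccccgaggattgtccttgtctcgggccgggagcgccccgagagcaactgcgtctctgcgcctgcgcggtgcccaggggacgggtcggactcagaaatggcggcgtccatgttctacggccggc
Idh2, chr7:80115301-80115600, minus strand: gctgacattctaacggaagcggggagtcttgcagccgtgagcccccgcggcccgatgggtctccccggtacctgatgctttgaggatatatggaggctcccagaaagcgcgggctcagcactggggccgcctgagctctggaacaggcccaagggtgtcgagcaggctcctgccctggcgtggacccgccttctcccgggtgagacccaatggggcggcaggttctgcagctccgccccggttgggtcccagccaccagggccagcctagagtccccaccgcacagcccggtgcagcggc

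The Ldha window held 5 matches to ACGTG, the Pfkm window 3, and the windows of Sucla2 and Idh2 none. Of the 43 genes, 41 had a window in RefSeq. ACGTG occurred in 17 of these 41 windows (41.5%), in 14 of the 30 windows of genes that fell and in 0 of the 5 windows of genes that rose, against 24.4% of the windows of all tested genes that had one and 19.6% of all 27025 windows. AGGTCA occurred in 6 of 41 (14.6%), against 12.1% and 16.0%. It too was in 0 of the 5 windows of genes that rose, and in 5 of the 30 of genes that fell. With 5 windows a count of 0 says little for either motif, and windows were not matched for base composition. These are counts of letters in fixed windows. They name no bound site. Pfkm and Ldha have several starts in that table, the RefSeq gene spans of Ldha and Idh2 begin upstream of the windows shown, and these data do not choose among starts.

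The libraries held 19781921 to 20063961 counts in the euthyroid group and 19298145 to 19407592 in the hypothyroid group. Hr and Klf9, known thyroid hormone targets, followed the labels: Hr went from 111 ± 8.57 to 5.58 ± 0.309 CPM (mean ± SD, n = 5 each) and Klf9 from 279 ± 61.6 to 23.6 ± 8.29 CPM. CPM are counts scaled to a common total, with library composition adjusted by the TMM method. The labels' extraction text describes cartilage of the femoral head at a later age, unlike the labelled tissue. All 8 markers of root cells and outer sulcus were tested, with a summed level of 8040 to 8780 CPM in euthyroid libraries, beside 59000 to 67600 CPM for 9 chondrocyte markers.

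In the hypothyroid libraries the RNA of most of these genes was lower. By edgeR's quasi-likelihood test at an adjusted p under 0.05, 31 of the 43 genes fell (72.1%, where 34.1% of all tested genes fell), 6 rose (14.0%, where 37.7% of all tested genes rose) and 6 did not pass. The median log2 change, hypothyroid minus euthyroid, was -0.47, beside 0.04 over all tested genes. Most shifts were modest. On the TMM scale, 3 genes passed the test and changed at least 2-fold (6.98%, where 17.2% of all genes did). They were Pfkm and Pdk1, which fell, and Idh2, which rose. With TMM scaling, the values of the 5 libraries of each group lay wholly apart in 29 genes that were lower (67.4%, against 28.5% of all genes). They also lay apart in 5 that were higher (11.6%, against 29.4%). Groups of CPM values said below to lie apart do so on this scale. Separation with library sizes alone is not given, and it may not hold there. In bulk tissue, fewer cells of a type and less RNA per cell cannot be told apart.

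The scaling of the libraries sets where zero lies. With library sizes alone in place of TMM factors, the median over all tested genes moved from 0.04 to 0.30. That of the 43 genes moved from -0.47 to -0.21. Such a change shifts all genes by about the same amount, so the gap of -0.51 on both scales could hardly differ. With library sizes alone 25 of the 43 genes fell (58.1%, against 19.7% of all genes) and 11 rose (25.6%, against 58.2% of all genes). Of the 31 genes that fell on the TMM scale, 25 fell on both scales, 5 did not pass with library sizes alone, and Fh1 changed side. All 6 that rose did so on both. Pfkm and Pdk1 stood at -0.97 and -0.77 with library sizes alone, short of 2-fold, and Idh2 at 1.3. As a share of all counts in a library, the 43 genes took 0.774 to 0.792% in the euthyroid libraries and 0.646 to 0.668% in the hypothyroid ones, except hypothyroid replicate 4, at 0.717%. Without that library, 32 fell, 6 rose and the median was -0.46.

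**Figure D1:**
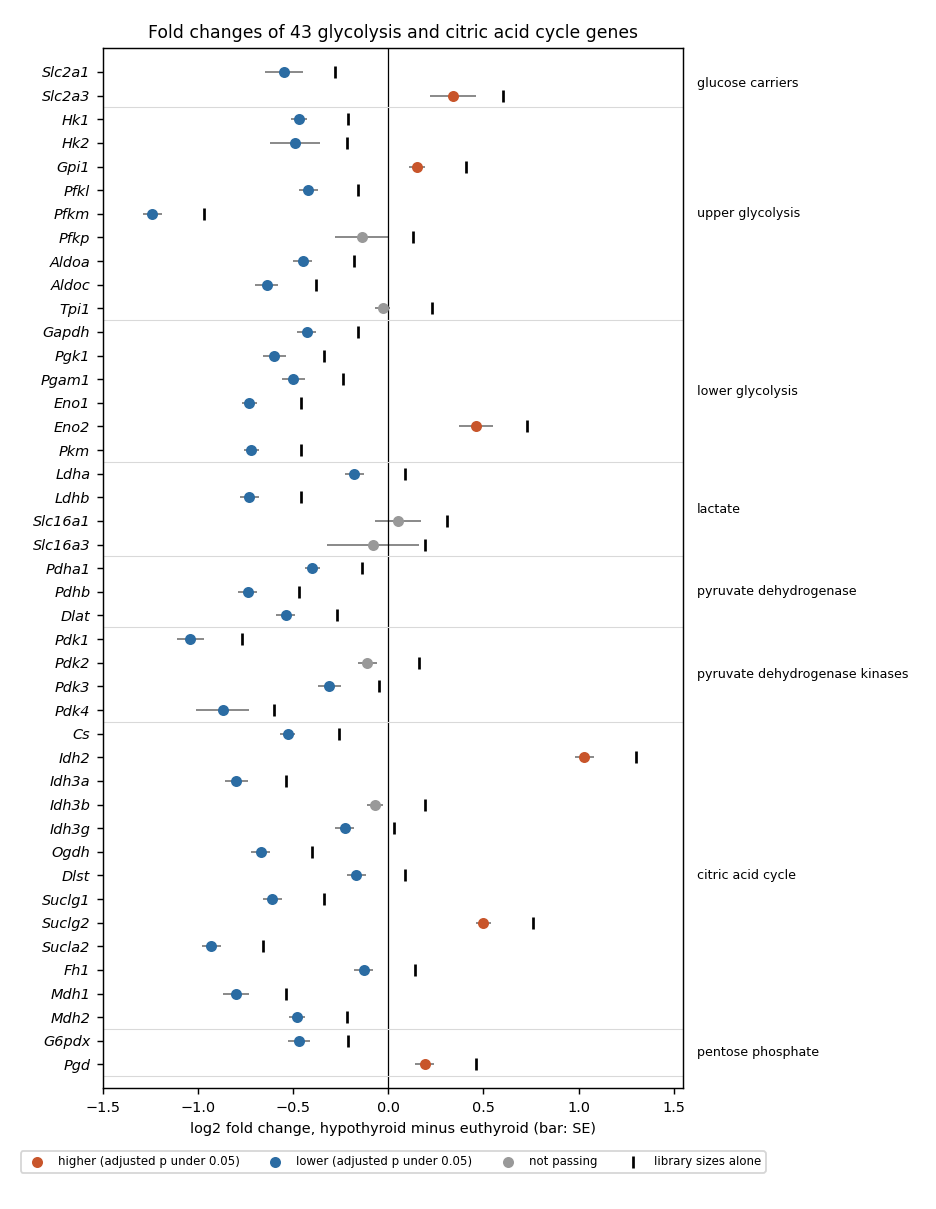
Log2 fold change, hypothyroid minus euthyroid (x axis), of the 43 genes in the order of the pathway (y axis); points are the edgeR estimates with TMM scaling, bars their SE, and short vertical ticks the estimates with library sizes alone. Most points lie left of zero, with Pfkm at -1.24 and Pdk1 at -1.04 farthest left and Idh2 at 1.03 farthest right, and every tick lies to the right of its point.

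Glucose enters cells through facilitative carriers. Slc2a1, which encodes GLUT1, the main carrier of barrier epithelia, measured 251.5, 243.4, 315.1, 281.9 and 276.3 CPM in euthyroid replicates 1 to 5 and 145.4, 218.4, 199.3, 200.5 and 171.2 CPM in hypothyroid replicates 1 to 5 (the order used for all genes). With TMM scaling the groups lay apart, and Slc2a1 fell by 0.55 on the log2 scale (SE 0.10, edgeR adjusted p = 0.000486). Slc2a3, which encodes the high-affinity neuronal carrier GLUT3, measured 4.7, 4.58, 6.43, 4.45 and 5.65 CPM in the euthyroid and 6.22, 5.99, 6.46, 6.55 and 7.4 CPM in the hypothyroid libraries. It rose by 0.34 (SE 0.12, edgeR adjusted p = 0.0219), though euthyroid replicate 3, at 6.43 CPM, lay inside the hypothyroid range. The call was lost without euthyroid replicate 1, 2 or 4 or hypothyroid replicate 5 (adjusted p 0.0604 to 0.0672). Per gene length it was the minor carrier, at 2.92 against 244 TPM (counts scaled by gene length to a fixed total) for Slc2a1 in the euthyroid mean.

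Among the first enzymes of glycolysis, 6 of 9 fell, 1 rose and 2 did not pass, with a median log2 change of -0.45. Hexokinase traps glucose as glucose 6-phosphate. Hk1, the form bound to mitochondria in most tissues, measured 143, 137, 147, 147 and 143 CPM in the euthyroid and 107, 95.9, 106, 108 and 101 CPM in the hypothyroid libraries, a fall of 0.47 on the log2 scale (SE 0.04, edgeR adjusted p = 1.19e-07). Hk2, the inducible form, was scarcer per gene length (5.85 against 85.4 TPM in the euthyroid mean) and measured 11, 12, 14.3, 17.4 and 12.3 CPM in the euthyroid and 10.3, 7.51, 10.8, 8.26 and 10.7 CPM in the hypothyroid libraries. It fell by 0.49 (SE 0.13, adjusted p = 0.00446) on the TMM scale, but stood at -0.22 with library sizes alone, which did not pass (adjusted p = 0.129). Gpi1, the isomerase that makes fructose 6-phosphate, rose by 0.15 (SE 0.04, edgeR adjusted p = 0.00534), from 203 ± 4.71 to 225 ± 9.54 CPM (SD, n = 5 each), with the groups apart. It shares 741 exonic bases with Gm26762 on the opposite strand, a gene absent from the deposited table.

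Phosphofructokinase commits sugar to glycolysis and is built from 3 kinds of subunit. Pfkm, the muscle type (chr15:98092589-98132447, GRCm38), showed the steepest fall of the 43 genes. It measured 336, 330, 379, 365 and 343 CPM in the euthyroid and 147, 145, 151, 156 and 146 CPM in the hypothyroid libraries. The lowest euthyroid library was above the highest hypothyroid one by more than 2-fold, and the fitted change was -1.24 (SE 0.05, 2.35-fold lower, edgeR adjusted p = 8.23e-12). Pfkl, the liver type, measured 168, 163, 175, 176 and 172 CPM in the euthyroid and 123, 127, 124, 141 and 121 CPM in the hypothyroid libraries, and it fell less, by 0.42 (SE 0.05, adjusted p = 1.14e-06). Pfkp, the platelet type, measured 18.9, 19.3, 17.0, 20.4 and 18.4 CPM in the euthyroid and 13.2, 17.9, 16.2, 24.1 and 13.9 CPM in the hypothyroid libraries. Its groups overlapped and its change of -0.14 did not pass (SE 0.14, edgeR adjusted p = 0.379), nor did that of 0.13 with library sizes alone. Hypothyroid replicate 4 held the highest Pfkp value of all 10 libraries, and without it the change was -0.30 and passed (adjusted p = 0.0123). Pfkp shares 748 exonic bases with Pitrm1 on the opposite strand, whose mean was 51.1 CPM. Pfkm shares 341 with Gm26513 on the same strand, a gene absent from the deposited table. The sources used here do not say whether counting used strand.

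Aldolase cleaves fructose 1,6-bisphosphate into trioses. Aldoa, the broadly expressed form, measured 385, 373, 395, 405 and 389 CPM in the euthyroid and 273, 298, 278, 306 and 271 CPM in the hypothyroid libraries, and fell by 0.45 (SE 0.05, edgeR adjusted p = 4.74e-07). Aldoc, the brain form, measured 114, 106, 105, 97.5 and 108 CPM in the euthyroid and 60.3, 69.7, 73.9, 67.8 and 68.7 CPM in the hypothyroid libraries, and fell by 0.64 (SE 0.06, adjusted p = 8.04e-08). Both pairs of groups lay apart. Tpi1, which interconverts the trioses, was the gene nearest to 0 change of the 43. It measured 165, 172, 169, 170 and 174 CPM in the euthyroid and 165, 159, 166, 179 and 160 CPM in the hypothyroid libraries. These ranges overlapped, with a change of -0.03 (SE 0.04, adjusted p = 0.484) that was 0.23 and passed as a rise with library sizes alone (adjusted p = 0.000258).

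The steps from glyceraldehyde 3-phosphate to pyruvate, where glycolysis regains ATP, held 5 genes that fell and 1 that rose, with a median of -0.55. Gapdh, the triose phosphate dehydrogenase that is often used as a reference gene, was the most abundant of the 43 per gene length, at 1920 TPM in the euthyroid mean. It measured 1170, 1120, 1110, 1140 and 1180 CPM in the euthyroid and 837, 844, 877, 914 and 786 CPM in the hypothyroid libraries. On the TMM scale every euthyroid library was above every hypothyroid one, and Gapdh fell by 0.43 (SE 0.05, edgeR adjusted p = 1.29e-06). With library sizes alone it fell by 0.16 (edgeR adjusted p = 0.00662). Pgk1, which makes the first ATP, measured 258, 253, 240, 273 and 262 CPM in the euthyroid and 163, 166, 167, 197 and 154 CPM in the hypothyroid libraries, a fall of 0.60 (SE 0.06, adjusted p = 3.09e-07). Pgam1, the phosphoglycerate mutase, measured 276, 281, 266, 283 and 272 CPM in the euthyroid and 184, 186, 186, 234 and 184 CPM in the hypothyroid libraries. It fell by 0.50 (SE 0.06, adjusted p = 4.06e-06), with hypothyroid replicate 4 nearest to the euthyroid range.

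Enolase makes phosphoenolpyruvate, and pyruvate kinase turns it into pyruvate with a second ATP. Eno1, the common enolase, measured 574, 568, 573, 605 and 572 CPM in the euthyroid and 358, 346, 346, 343 and 355 CPM in the hypothyroid libraries. It fell by 0.73 (SE 0.04, 1.65-fold, edgeR adjusted p = 3.37e-10), and its near-identical copy Eno1b held 0.13% of their summed CPM. Eno2, the neuronal enolase, was scarce and went the other way, with 11.2, 14.8, 14.2, 12.1 and 11.9 CPM in the euthyroid and 17.4, 15.9, 17.5, 19.9 and 17.7 CPM in the hypothyroid libraries. The groups lay apart and Eno2 rose by 0.46 (SE 0.09, adjusted p = 0.000285). Pkm, the pyruvate kinase of most tissues other than liver, measured 794, 768, 791, 801 and 793 CPM in the euthyroid and 475, 480, 477, 489 and 469 CPM in the hypothyroid libraries. Its fall was 0.72 (SE 0.04, adjusted p = 2.95e-10), with a narrow spread inside each group. Gene-level counts do not separate the M1 and M2 splice forms of Pkm. The gene shares 767 exonic bases with Gm49759 on the same strand, which is absent from the deposited table.

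**Figure D2:**
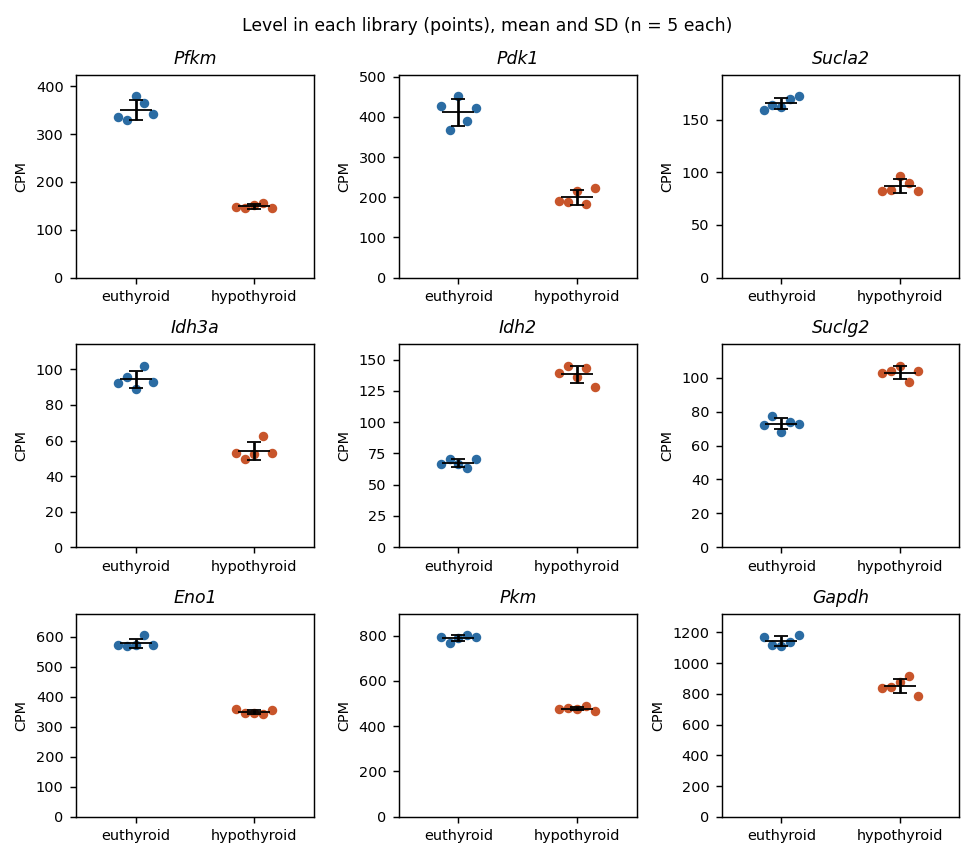
Level in CPM with TMM scaling (y axis, from 0) of 9 genes in each euthyroid and hypothyroid library (points, with the mean and SD of 5 libraries per group). Pfkm, Pdk1, Sucla2, Idh3a, Eno1, Pkm and Gapdh are lower in all 5 hypothyroid libraries than in any euthyroid one, and Idh2 and Suclg2 are higher in all 5.

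Of the 4 genes of lactate handling, 2 fell and 2 did not pass. Ldhb, the heart-type subunit of lactate dehydrogenase, measured 491, 495, 527, 512 and 510 CPM in the euthyroid and 287, 310, 331, 321 and 285 CPM in the hypothyroid libraries. The groups lay well apart, and Ldhb fell by 0.73 (SE 0.05, edgeR adjusted p = 4.63e-09). Ldha, the muscle-type subunit, measured 263, 249, 283, 301 and 294 CPM in the euthyroid and 248, 238, 254, 238 and 247 CPM in the hypothyroid libraries. Euthyroid replicate 2, at 249 CPM, lay inside the hypothyroid range. Ldha fell by 0.18 (SE 0.05, adjusted p = 0.00669) on the TMM scale, while on library sizes alone it stood at 0.09 and did not pass (adjusted p = 0.10).

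The carriers that move lactate across the plasma membrane did not pass the test. Slc16a1, which encodes MCT1, measured 33.6, 37.5, 35.2, 30.1 and 31.5 CPM in the euthyroid and 35.8, 25.0, 36.0, 42.9 and 33.6 CPM in the hypothyroid libraries. Hypothyroid replicates 2 and 4 held the lowest and the highest of the 10 values, and the change was 0.05 (SE 0.12, edgeR adjusted p = 0.739), or 0.31 with library sizes alone (adjusted p = 0.0348). Slc16a3, which encodes MCT4, the export carrier of strongly glycolytic cells, was the scarcest of the 43 genes, at 1.72 TPM in the euthyroid mean. It measured 1.73, 1.29, 2.43, 1.69 and 2.11 CPM in the euthyroid and 1.96, 0.903, 1.64, 1.89 and 2.36 CPM in the hypothyroid libraries, with full overlap and a change of -0.08 (SE 0.24, adjusted p = 0.789), or 0.19 with library sizes alone, neither of which passed.

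All 3 genes of the pyruvate dehydrogenase complex fell, with their groups apart. Pdhb, which encodes the E1 beta subunit, measured 123, 133, 118, 133 and 135 CPM in the euthyroid and 77.5, 75.9, 78.5, 78.5 and 73.9 CPM in the hypothyroid libraries. It fell by 0.74 (SE 0.05, edgeR adjusted p = 1.8e-09). Pdha1, the partner E1 alpha subunit, fell by 0.40 (SE 0.04, adjusted p = 3.7e-07) from 191 ± 3.22 to 145 ± 6.07 CPM (SD, n = 5 each). Dlat, the E2 core, measured 79.5, 84.8, 79.0, 81.6 and 80.5 CPM in the euthyroid and 53.1, 51.4, 57.3, 62.6 and 55.1 CPM in the hypothyroid libraries, and fell by 0.54 (SE 0.05, adjusted p = 3.34e-07). Pdha1 shares 603 exonic bases with Map3k15 on the other strand, whose mean was 1.99 CPM.

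The kinases that switch this complex off by phosphorylation also fell in 3 cases of 4, with a median of -0.59. Pdk1 (chr2:71873215-71903858, GRCm38), a known target of hypoxia-inducible factors, measured 426, 367, 451, 389 and 423 CPM in the euthyroid and 190, 187, 216, 183 and 224 CPM in the hypothyroid libraries. No values overlapped, and Pdk1 fell by 1.04 (SE 0.07, 2.05-fold, edgeR adjusted p = 3.52e-09). Pdk4, the form induced by fasting, measured 15.4, 15.4, 14.3, 18.3 and 17.2 CPM in the euthyroid and 8.56, 12.6, 6.41, 8.35 and 8.2 CPM in the hypothyroid libraries, and fell by 0.87 (SE 0.14, adjusted p = 7.72e-05). Pdk3 fell by 0.31 (SE 0.06, adjusted p = 0.000174) from 43.9 ± 2.89 to 35.3 ± 1.85 CPM (SD, n = 5 each), and with library sizes alone its change of -0.05 did not pass. Pdk2, at 88.8 ± 3.47 and 82.5 ± 4.79 CPM, had a change of -0.11 that did not pass (SE 0.05, adjusted p = 0.0635). It passed as a fall without euthyroid replicate 4 or hypothyroid replicate 2 (adjusted p 0.045 and 0.0413), as a fall with DESeq2 or its size factors (-0.13 in both, adjusted p 0.0165 and 0.0222), and as a rise with library sizes alone (0.16, adjusted p = 0.0108). Within the summed TPM of the 4 kinases, Pdk1 held 53.5 to 58.6% in euthyroid and 41.0 to 47.8% in hypothyroid libraries, and Pdk2 25.1 to 29.4% and 32.9 to 38.6%.

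Of the 13 genes grouped under the citric acid cycle, 10 fell, 2 rose and 1 did not pass, with a median of -0.48. This group includes the cytosolic enzyme of Mdh1, which fell, and the NADPH-making enzyme of Idh2, which rose. With library sizes alone 7 fell, 4 rose and 2 did not pass. Cs, the citrate synthase that opens the cycle and is often used as a measure of mitochondrial content, measured 214, 216, 213, 220 and 215 CPM in the euthyroid and 148, 149, 153, 153 and 143 CPM in the hypothyroid libraries. It fell by 0.53 (SE 0.04, edgeR adjusted p = 6.11e-09), with little spread within either group.

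Among the isocitrate dehydrogenases, genes moved in opposite directions. Idh2 (chr7:80094845-80118608, GRCm38), the mitochondrial form that makes NADPH, measured 66.4, 70.7, 66.5, 63.4 and 70.4 CPM in the euthyroid and 139, 145, 136, 143 and 128 CPM in the hypothyroid libraries. Every hypothyroid library was above every euthyroid one, and Idh2 rose by 1.03 (SE 0.05, 2.04-fold, edgeR adjusted p = 5.47e-11). Idh3a, the catalytic subunit of the NAD-dependent enzyme of the cycle, went the opposite way, with 92.3, 95.8, 89.2, 102 and 93.0 CPM in the euthyroid and 52.8, 49.6, 52.4, 62.4 and 53.2 CPM in the hypothyroid libraries and a fall of 0.80 (SE 0.06, adjusted p = 1.24e-08). Idh3b, a partner subunit, measured 88.2, 88.2, 91.2, 86.3 and 87.3 CPM in the euthyroid and 82.9, 88.5, 84.2, 86.1 and 77.6 CPM in the hypothyroid libraries. Its groups overlapped, and its change of -0.07 did not pass (SE 0.04, adjusted p = 0.143), though it was 0.19 and passed as a rise with library sizes alone (adjusted p = 0.00111). Idh3g, the third subunit gene, fell by 0.23 (SE 0.05, adjusted p = 0.000277) from 83.4 ± 1.44 to 70.9 ± 3.84 CPM, and with library sizes alone stood at 0.03. Of the summed TPM of these 4 genes, Idh2 held 18.5 to 20.5% in euthyroid and 36.8 to 38.5% in hypothyroid libraries, and Idh3a 18.6 to 21.0% and 9.34 to 11.7%.

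Oxoglutarate dehydrogenase, the next step, is built like the pyruvate dehydrogenase complex. Ogdh, its E1 subunit, measured 246, 259, 260, 265 and 248 CPM in the euthyroid and 158, 158, 157, 180 and 153 CPM in the hypothyroid libraries, a fall of 0.67 (SE 0.05, edgeR adjusted p = 9.55e-09). Dlst, its E2 core, fell by 0.17 (SE 0.05, adjusted p = 0.00394) from 123 ± 3.92 to 109 ± 6.61 CPM, but stood at 0.09, not passing, with library sizes alone.

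Succinyl-CoA ligase pairs the alpha subunit encoded by Suclg1 with a beta subunit that makes either ATP, encoded by Sucla2, or GTP, encoded by Suclg2. Suclg1 measured 71.4, 73.3, 70.8, 76.5 and 75.6 CPM in the euthyroid and 45.9, 47.0, 52.2, 50.7 and 45.8 CPM in the hypothyroid libraries, and fell by 0.61 (SE 0.05, edgeR adjusted p = 3.96e-08). Sucla2 (chr14:73552786-73596144, GRCm38) measured 159, 164, 162, 169 and 172 CPM in the euthyroid and 82.3, 83.1, 96.6, 90.0 and 82.0 CPM in the hypothyroid libraries. It fell by 0.93 (SE 0.05, 1.90-fold, adjusted p = 3.87e-10), the deepest fall within the cycle. Suclg2 (chr6:95473009-95718858, GRCm38) rose instead. Its libraries measured 72.1, 77.2, 68.1, 74.1 and 72.6 CPM in the euthyroid and 103, 104, 107, 97.3 and 104 CPM in the hypothyroid libraries, a change of 0.50 (SE 0.04, adjusted p = 9.78e-08). The groups lay apart for both beta subunits, in opposite directions.

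Fumarase and malate dehydrogenase close the cycle. Fh1 fell by 0.13 (SE 0.05, edgeR adjusted p = 0.0304) from 49.0 ± 2.66 to 44.9 ± 1.34 CPM (SD, n = 5 each), with overlap. That call held under 9 of 21 alternatives, the fewest of the 31 falls: Fh1 stood at 0.14 and passed as a rise with library sizes alone (adjusted p = 0.0295), and did not pass without euthyroid replicate 5 or without hypothyroid replicate 1, 2, 3 or 5 (adjusted p 0.0513 to 0.0738). Mdh1, the cytosolic malate dehydrogenase of the malate-aspartate shuttle, measured 326, 349, 304, 319 and 316 CPM in the euthyroid and 170, 174, 187, 219 and 174 CPM in the hypothyroid libraries. It fell by 0.80 (SE 0.07, adjusted p = 3.95e-08), least in hypothyroid replicate 4. Mdh2, the mitochondrial enzyme of the cycle, measured 157, 161, 152, 172 and 162 CPM in the euthyroid and 116, 114, 118, 115 and 111 CPM in the hypothyroid libraries, and fell by 0.48 (SE 0.04, adjusted p = 7.02e-08).

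The pentose phosphate pathway branches off before these steps and supplies NADPH and ribose. Its 2 genes in the set split: G6pdx, the first dehydrogenase, fell by 0.47 (SE 0.06, edgeR adjusted p = 1.85e-06) from 61.3 ± 4.45 to 44.2 ± 1.57 CPM (SD, n = 5 each). Pgd, the second, rose by 0.19 (SE 0.05, adjusted p = 0.00232) from 101 ± 2.25 to 116 ± 7.80 CPM. With TMM scaling the groups lay apart in each gene. G6pdx shares 418 exonic bases with Ikbkg on the opposite strand, which had a mean of 57.5 CPM.

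A ratio of 2 related genes within a library does not depend on how that library is scaled. Across 10 such ratios of TPM, 6 differed between the groups by an exact two-sided permutation test over all assignments of the libraries to groups of 5, after Benjamini-Hochberg adjustment over the 10. The smallest p this design allows is 0.00794, reached by 5 ratios, each with an adjusted p of 0.0159 and with groups apart. The largest shift was in succinyl-CoA ligase: the ratio of Suclg2 to Sucla2 was 0.345 to 0.387 in euthyroid and 0.893 to 1.05 in hypothyroid libraries, so that the GTP-type transcript made up 25.6 to 27.9% of the pair in the first group and 47.2 to 51.3% in the second. Ldhb to Ldha was 2.14 to 2.50 in euthyroid libraries and 1.45 to 1.69 in hypothyroid ones, with Ldhb the more abundant in all 10. Pfkm to Pfkl was 2.61 to 2.84 in the euthyroid and 1.45 to 1.60 in the hypothyroid libraries.

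The ratio of Eno2 to Eno1 was 0.0130 to 0.0172 in euthyroid and 0.0296 to 0.0376 in hypothyroid libraries, and that of Slc2a3 to Slc2a1 0.0102 to 0.0130 and 0.0174 to 0.0275. In both pairs the scarce, neuron-associated gene stayed a small part of the sum, at most 3.62% for Eno2 and 2.68% for Slc2a3. Mdh2 to Mdh1 went from a mean log2 ratio of -0.37 ± 0.09 to -0.05 ± 0.15 (SD, n = 5 each, exact permutation p = 0.0159, adjusted p = 0.0265), with hypothyroid replicate 4 inside the euthyroid range. That call was lost (adjusted p = 0.0529) when any library other than euthyroid replicate 4 or hypothyroid replicate 3 or 4 was left out. Fewer libraries allow fewer assignments, which raises the smallest p this test can reach. In those cases the difference in log2 ratio stayed at 0.29 to 0.34. The ratio of Aldoc to Aldoa had a difference of -0.19 (exact permutation p = 0.0476, adjusted p = 0.068) and passed without euthyroid replicate 4 or hypothyroid replicate 3 (adjusted p = 0.0454). No difference passed for Pfkp to Pfkl (0.24, adjusted exact permutation p = 0.159), Slc16a3 to Slc16a1 (-0.11, adjusted p = 0.714) or Hk2 to Hk1 (-0.01, adjusted p = 0.921).

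**Figure D3:**
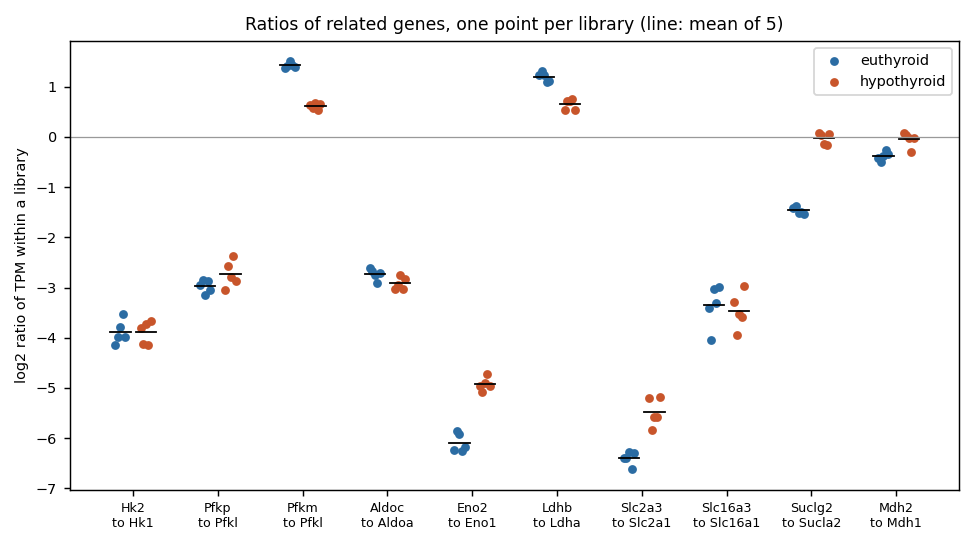
Log2 ratio of TPM of 2 related genes (y axis) within each library (points) for 10 gene pairs (x axis), with the mean of 5 libraries per group as a line. The groups are apart for Pfkm to Pfkl, Eno2 to Eno1, Ldhb to Ldha, Slc2a3 to Slc2a1 and Suclg2 to Sucla2, and overlap for the other 5 pairs.

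Genes of neighbouring pathways were read from 8 lists, to be set beside the 34.1% of all tested genes that fell and the 37.7% that rose. Of 15 further genes of pyruvate entry and the citric acid cycle, 12 fell (80.0%), 2 rose and 1 did not pass (median -0.33, and 7 lower and 3 higher with library sizes alone). Pcx, the pyruvate carboxylase that refills the cycle, fell from 73.1 ± 4.46 to 25.9 ± 1.33 CPM (SD, n = 5 each), a log2 change of -1.49 (edgeR adjusted p = 6.13e-12). Both subunits of the mitochondrial pyruvate carrier fell, Mpc1 by 0.68 and Mpc2 by 0.74. Of 10 genes of the shuttles that carry reducing equivalents from the cytosol, 7 fell (70.0%), 1 rose and 2 did not pass (median -0.48, and 5 lower and 3 higher with library sizes alone). Gpd2, the mitochondrial glycerol phosphate dehydrogenase and a textbook thyroid hormone target, fell from 257 ± 25.5 to 42.4 ± 2.43 CPM, a change of -2.60 (adjusted p = 2.22e-13). Its cytosolic partner Gpd1 fell by 2.02, and Slc25a12, the aspartate-glutamate carrier, fell by 0.89.

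The list of other glycolytic enzymes and carriers stood near those shares over all genes: of 21 tested, 8 fell (38.1%), 6 rose (28.6%) and 7 missed the threshold (median -0.07, and 4 lower and 11 higher with library sizes alone). Bsg, the chaperone of the lactate carriers, fell by 0.82 from 1270 ± 57.9 to 718 ± 47.3 CPM (SD, n = 5 each), while Hkdc1, a scarce hexokinase, rose from 1.06 ± 0.173 to 2.99 ± 0.491 CPM. Slc2a10 fell by 0.66. Of 12 further genes of NADPH supply and the pentose phosphate pathway, 7 fell (58.3%), 2 rose and 3 did not pass (median -0.21, and 5 lower and 6 higher with library sizes alone). The malic enzymes Me1, a classical thyroid hormone target in liver, and Me2 fell by 1.16 and 0.86, and Rpe fell by 0.42. In glycogen metabolism 6 of 17 fell (35.3%, near the share over all genes), 4 rose (23.5%) and 7 did not pass, with 4 lower and 10 higher by library sizes alone. Gbe1, the branching enzyme, and Phkb, a phosphorylase kinase subunit, fell by 0.80 and 0.76, and Pygl, the liver-type phosphorylase, rose by 1.44. Of 4 tested genes of gluconeogenesis, Fbp2 and G6pc3 fell (-0.56 and -0.51), Pck2 rose (0.19) and Fbp1 did not pass. The Fbp2 call was lost without euthyroid replicate 2 (adjusted p = 0.0509) and with library sizes alone, FPKM or TPM (adjusted p 0.102 to 0.182), and that of Pck2 without euthyroid replicate 4.

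Among 23 regulators of glucose metabolism 14 fell (60.9%), 4 rose and 5 did not pass (median -0.28, and 9 lower and 9 higher with library sizes alone). Prkaa2, a catalytic subunit of the energy sensor AMPK, fell by 2.04, from 151 ± 16.3 to 36.7 ± 6.59 CPM (SD, n = 5 each). Epas1, which encodes HIF-2 alpha, fell by 1.17 and Ppard, a fatty acid-sensing receptor, by 0.97. Of 15 hypoxia response genes outside the glycolytic enzymes 4 fell (26.7%), 4 rose and 7 did not pass (median -0.09, and 4 lower and 6 higher with library sizes alone). Higd1a fell by 1.51 and P4ha1 by 0.62, while Vegfa, the vascular growth factor, rose by 0.38. Pfkfb3 and Pfkfb4 stood in both this list and that of other glycolytic enzymes. The genes named from each list are the 3 with the smallest adjusted p.

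**Figure D4:**
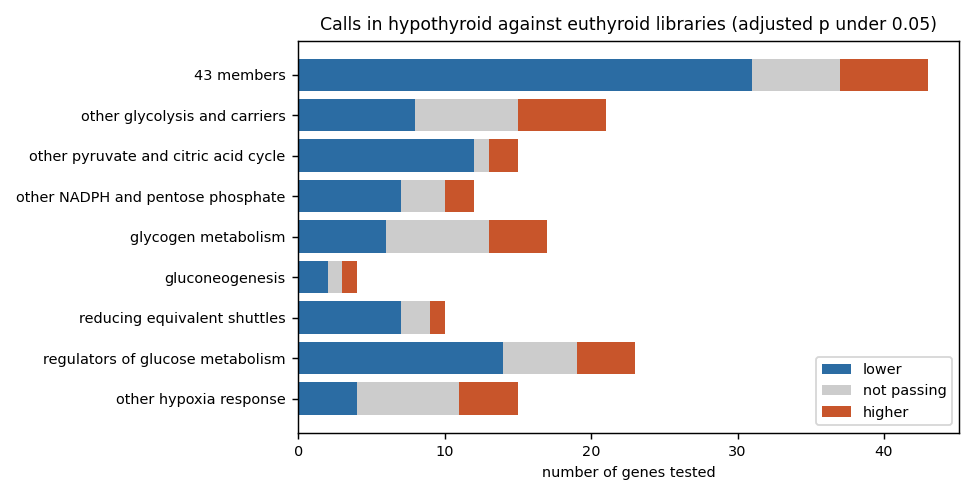
Number of tested genes (x axis) that were lower, did not pass or were higher in hypothyroid libraries by edgeR at an adjusted p under 0.05, for the 43 genes and 8 related lists (y axis). With TMM scaling the lower calls are 31 of 43 in the set and 12 of 15 among other genes of pyruvate entry and the citric acid cycle, against 8 of 21 among other glycolytic enzymes and carriers.

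Markers of several cell types moved with the groups. Of 8 markers of root cells and outer sulcus 6 fell and 1 rose (summed 8040 to 8780 CPM in euthyroid and 3300 to 3990 CPM in hypothyroid libraries), and of 8 fibrocyte markers 7 fell and 1 rose (16500 to 20100 and 5950 to 7200 CPM). Of 9 chondrocyte markers 7 fell and 1 rose (59000 to 67600 and 23300 to 25400 CPM), and all 8 of osteoblasts fell (1060 to 1630 and 32.2 to 57.9 CPM, with Bglap2 at 0 in the hypothyroid libraries). All 5 endothelial markers fell (608 to 737 and 465 to 555 CPM), and 5 of 7 tested hair cell markers fell and 1 rose (42.9 to 98.5 and 32.2 to 41.8 CPM, with Slc26a5 at 0 in the hypothyroid libraries). Markers that rose were all 6 of melanocytes (398 to 606 and 864 to 1660 CPM), all 8 of macrophages (248 to 279 and 405 to 546 CPM), all 6 of dividing cells (21.9 to 33.2 and 66.7 to 110 CPM) and 2 of 3 tested neuronal ones, with 1 lower (23.2 to 33.8 and 43.6 to 60.9 CPM). No marginal cell marker of 4 passed (280 to 458 and 352 to 752 CPM), 1 of 7 erythroid ones fell (440 to 810 and 494 to 713 CPM), 1 of 6 glial ones rose and 2 fell (307 to 402 and 261 to 329 CPM), and 1 of 3 tested muscle ones rose (15.7 to 20.7 and 21.3 to 24.4 CPM, with Myh1 and Myh4 at 0 in the hypothyroid libraries). The part of these shifts in the changes of the 43 genes was not tested.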

How the data were processed

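Polyadenylated RNA from 10 libraries was sequenced as single-end reads of 50 bases. The build GRCm38.p6 and the tools RSEM 1.2.12, Bowtie2 2.2.5 and HISAT2 2.0.4 are named per the submitters' processing notes. The authors deposited 1 table of 18725 genes with expected counts, FPKM and TPM per library. The deposited expected counts are RSEM estimates, the deposited FPKM and TPM are scaled by length and depth by the authors, and 18 further sample columns (normalised counts and means) were not used. Strand use is not given in the sources used here. Expected counts were rounded and fitted with edgeR 4.0.16 (R 4.3.3): TMM factors, filterByExpr with a minimum count of 10, robust quasi-likelihood test on group, Benjamini-Hochberg over 14862 genes, called at an adjusted p under 0.05. DESeq2 1.42.0, limma 3.58.1, other scalings and filters, FPKM or TPM with pseudocounts of 1 and 0.1, a replicate block and leaving out each library were alternatives. The method was also run on simulated data in which few genes changed. In these data most tested genes were called, so that run cannot show whether the scaling or the rate of false calls holds here. Ratios used TPM. Gene coordinates are from RefSeq on GRCm38.p6. Values in every library are given for genes that passed with a log2 change of at least 0.5 in size. They are also given for the 3 genes nearest to 0, for members of a ratio and for Gapdh. The genes and lists were chosen with earlier results of these data known.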

Additional observations from a re-analysis of the deposited data

Results flagged for a closer look

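In groups of 5 libraries, 154 groups of values were examined for a library that stood apart from the others, by the gap to its nearest neighbour as a share of the range. There were 10 such cases, where chance alone flags about 1 in 20 groups, and 5 of the 10 were in hypothyroid replicate 4. The groups of values come from the same libraries, so the cases are not independent of each other. In that library Pgam1 was high at 234 CPM (nearest other 186), Idh3a at 62.4 CPM (53.2), Ogdh at 180 CPM (158) and Gpd1 at 6.74 CPM (4.43), each toward the euthyroid values. Its log2 ratio of Mdh2 to Mdh1 was low, at -0.298, where the nearest other hypothyroid library had -0.027. Among euthyroid libraries, replicate 4 was high in Eno1 at 605 CPM (574), replicate 2 was low in Pkm at 768 CPM (791) and high in Pdk2 at 94.8 CPM (88.5), replicate 3 was low in G6pdx at 53.6 CPM (61.5) and replicate 5 was high in Pgd at 105 CPM (100).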

How the results depend on the processing

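The count of genes that fell stayed between 25 and 33 of 43 and the count that rose between 5 and 6, except for 9 with TPM and 11 with library sizes alone or FPKM. The median log2 change was -0.21 with library sizes alone, -0.36 with upper quartile factors, -0.19 with FPKM, -0.23 with TPM and a pseudocount of 1, and -0.24 with 0.1. Its gap to the median of all tested genes was -0.42 with FPKM, -0.46 with TPM and a pseudocount of 1, and -0.50 with 0.1. In the order library sizes alone, FPKM, TPM with 1 and TPM with 0.1, Tpi1 turned to 0.23, 0.23, 0.19 and 0.19, Ldha to 0.09, 0.09, 0.05 and 0.05, Pdk2 to 0.16, 0.15, 0.12 and 0.12, Idh3b to 0.19, 0.20, 0.17 and 0.17, Dlst to 0.09, 0.09, 0.05 and 0.05 and Fh1 to 0.14, 0.13, 0.10 and 0.10. Idh3g turned to 0.03 in the first 2. These settings apply no TMM factors. Idh3b passed as a fall with DESeq2, and Pdk2 with DESeq2 or its size factors. Over the other comparisons of single genes of the set with an alternative, 844 kept their side of the threshold, 24 lost their call and 8 gained one. Among the 844, 14 values of 5 genes changed sign while passing neither way: Pfkp to 0.13 with library sizes alone, 0.07 with FPKM and 0.04 with TPM, Slc16a3 to between 0.03 and 0.19 under 7 settings, Tpi1 to 0.08 and Idh3b to 0.04 with upper quartile factors, and Slc16a1 to -0.04 without hypothyroid replicate 4. Leaving out each library gave 0.29 to 0.39 for the log2 ratio of Mdh2 to Mdh1 and -0.23 to -0.15 for that of Aldoc to Aldoa. Replicate numbers did not pair the samples (same-number correlations -0.084 to 0.146), and with a replicate block 30 fell, 6 rose and 7 did not pass, with Fh1 lost (adjusted p = 0.0643). Of list counts, those higher in glycogen metabolism moved from 4 to 10 with library sizes alone or FPKM, 7 with upper quartile factors and 9 with TPM. With library sizes alone the higher counts moved from 6 to 11 in other glycolysis, 2 to 6 in NADPH supply, 4 to 9 in regulators and 1 to 3 in shuttles, and the lower counts from 8 to 4 in other glycolysis, 12 to 7 in pyruvate entry, 14 to 9 in regulators and 2 to 1 in gluconeogenesis. With FPKM the lower count in NADPH supply was 4, against 7. The depth limits Slc16a3 and Slc2a3 most, the scarcest of the 43.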
